A study of Mus musculus with 9 samples.

Results

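The response of mouse embryonic stem cells to the lower of the 2 doses of 5-ITU in the series was read from 6 arrays, the 3 labelled 0.1 μM 5-ITU and the 3 labelled as DMSO controls. The members described here were the probe sets of the deposited table that carried exactly 1 gene symbol and whose log2 signal was over a background threshold of 8.46 on at least 3 of the 9 arrays, whichever arrays these were. This rule took no difference between doses into account and left 8414 of 10476 probe sets, covering 8198 genes. Of these members, 7442 were over the threshold on all 9 arrays.

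The 0.1 μM group was E14 embryonic stem cells grown on gelatine in serum medium with LIF and exposed for 26 h to 0.1 μM 5-ITU, and the control group was the same cells given its solvent, DMSO, for the same 26 h. A further 3 arrays of cells at 1 μM entered the fit, where they added to the estimate of the spread. They also counted in the threshold rule, in the choice of a gene's brightest probe set and in the grouping of members by signal. Their values are otherwise used only where the spread of the groups is set side by side. All cells were of 1 line, and although the methods speak of biological replicates, no label says that the 3 arrays of a group came from separate cultures, so the p-values measure the spread between these arrays, which may be technical. The arrays were Mouse Gene 2.0 ST arrays, read as log2 signal after RMA by the authors, a scale on which a difference of 1 is a doubled signal.

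5-ITU (5-Iodotubercidin) is an adenosine analogue first known as an inhibitor of adenosine kinase, and it also inhibits Haspin, the kinase that phosphorylates a threonine near the tip of histone H3 in mitosis. Mouse embryonic stem cells in serum and LIF hold a pluripotency network around Pou5f1, Sox2 and Nanog, keep many germline genes under repression by promoter methylation and Polycomb-type complexes, and divide quickly with little time in G1. A probe set of this array sums probes spread along a whole transcript, so a value can move with the amount of a transcript or with the exons it keeps. Differences below are always the mean log2 signal at 0.1 μM minus that in DMSO, with the standard error of limma's fit over the 9 arrays, and a member is said to have risen or fallen only where its p-value, adjusted over all 9911 probe sets tested, was under 0.05. Levels of different genes are not compared, since each probe set has its own brightness.

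The largest falls of the comparison were those of a pair of microRNA genes, Mir329 and Mir377, which lie in the same microRNA cluster of the imprinted Dlk1-Dio3 region on chromosome 12. Their mature sequences, from RefSeq on GRCm38.p6, are shown because both genes give a 5p arm with nearly the same seed, the stretch at bases 2 to 8 (in capitals) by which a microRNA pairs with its targets.
mmu-miR-329-5p: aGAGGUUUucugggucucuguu
mmu-miR-377-5p: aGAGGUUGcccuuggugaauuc
mmu-miR-329-3p: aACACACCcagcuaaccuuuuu
mmu-miR-377-3p: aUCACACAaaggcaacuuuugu
The miR-329 arms lie at chr12:109713503-109713524 and chr12:109713541-109713562, and the miR-377 arms at chr12:109740515-109740536 and chr12:109740553-109740574, all on the plus strand. The array reads the precursor transcripts and cannot tell the arms apart.

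At 0.1 μM, 436 members rose and 127 fell. These are 5.18% and 1.51% of all members, and gene by gene, with each gene taken once by its brightest probe set, 5.29% of the 8198 genes rose and 1.41% fell. The changes were small. The risen members had a median log2 difference of 0.35, between 0.16 and 1.04, and the fallen ones a median of -0.25, between -0.18 and -0.83. The median over all genes was 0.00, with 4289 members higher and 4125 lower in mean. In each of these calls all 3 arrays at 0.1 μM lay on one side of all 3 DMSO arrays, an arrangement that held for 18.8% of all members in the upward direction and 15.9% in the downward one.

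Past a 1.5-fold change with an unadjusted p under 0.05, 52 members were higher (0.618% of all) and 5 were lower (0.0594%). The 5 lower ones were Mir329, Mir377, the small nucleolar RNA gene AF357355 of the same chromosome 12 region, the receptor Ror1 and the small nucleolar RNA Snora31, of which Snora31 missed the adjusted test (adjusted p = 0.15). The calls depended on the arrays at 0.1 μM in particular. When 1 of the 3 was left out, between 119 and 148 members were higher and between 7 and 18 lower, and 104 higher and 6 lower calls were made in the full fit and in each of the 9 fits without 1 array. The count of falls was 84 without the second DMSO array, and 69 and 198 without the second and the third array at 1 μM, which enter the comparison only through the spread.

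**Figure D1:**
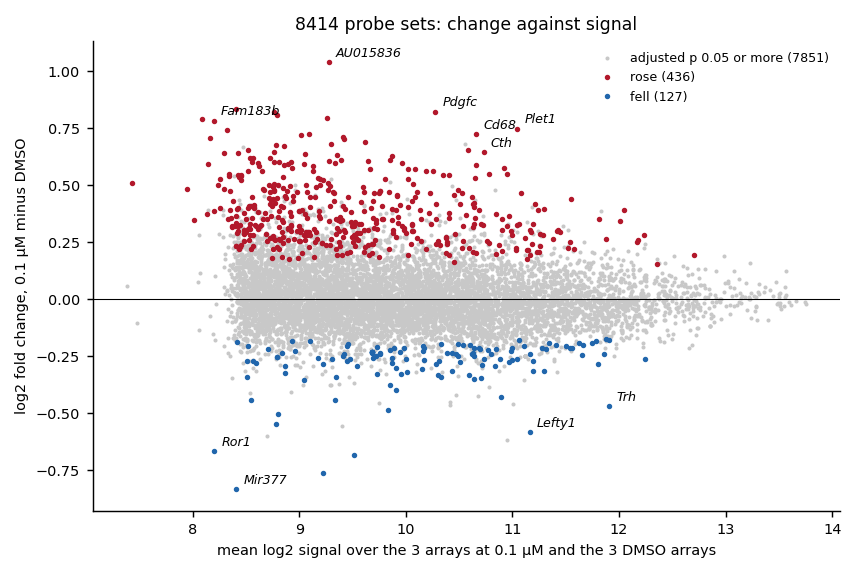
Mean log2 signal over both groups (horizontal) against the log2 difference, 0.1 μM 5-ITU minus DMSO (vertical), for the 8414 members, with the 436 that rose in red and the 127 that fell in blue. Rises reach further from 0 than falls and lie more to the left, among the dimmer members.

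Rises were more frequent among dim members. In the lowest of 5 equal groups of members by mean signal 8.97% rose and 1.07% fell, while in the highest 2.61% rose and 1.66% fell. For 68 of the risen members every DMSO array was under the background threshold, and for 5 of the fallen members every array at 0.1 μM was under it. There were 45 members over the threshold on the arrays at 0.1 μM alone, and 26 of them rose. Such members passed the filter only through these arrays, so a rise could itself have brought them in. Gene by gene, 203 were over the threshold on fewer than 3 of the other arrays, and 50 of these rose. Of the remaining 7995 genes, 4.8% rose and 1.45% fell. The shares by level of signal include all of these members. A signal near the threshold is in part background, which compresses a log2 difference.

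The transcript with the largest change was AU015836, an X-linked expressed sequence with no role assigned here. It read 9.75, 9.90 and 9.74 at 0.1 μM, against 8.75, 8.73 and 8.79 in DMSO, a log2 difference of 1.04 (SE 0.052, adjusted p = 4e-05). It was the only member whose signal at least doubled with an adjusted p under 0.05, and its 2 groups were separated by many times the spread of either. Outside numbered loci and small RNAs, the platelet-derived growth factor Pdgfc had the largest rise with both means over the threshold. It read 10.75, 10.60 and 10.70 at 0.1 μM, against 10.03, 9.80 and 9.76 in DMSO, a difference of 0.82 (SE 0.096, adjusted p = 0.0028). Plet1, a surface protein of placental and epithelial progenitors, read 11.46, 11.43 and 11.37 at 0.1 μM, against 10.48, 10.71 and 10.83 in DMSO (0.75, SE 0.11, adjusted p = 0.0071). These 3 genes were over the threshold on every array and so were not read against background.

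Other members among the largest rises were dim in DMSO. The testis serine protease Prss42 read 8.85, 8.81 and 8.82 at 0.1 μM, against 7.79, 7.95 and 8.23 in DMSO (0.83, adjusted p = 0.026), with no DMSO array over the threshold. Fam183b, a gene of ciliated cells, read 8.57, 8.62 and 8.58 at 0.1 μM, against 7.66, 7.88 and 7.88 in DMSO (0.78, adjusted p = 0.001), and Mymx, the small protein that fuses muscle precursors, read 8.76, 8.62 and 8.69 at 0.1 μM, against 7.90, 7.91 and 8.04 in DMSO (0.74, adjusted p = 0.001). For these genes the DMSO value is at background. The peptidylarginine deiminase Padi2 (0.82, adjusted p = 0.016), the membrane protein Emp3 (0.81, adjusted p = 0.0091) and the noncoding transcript Ptprtos (0.79, adjusted p = 0.014), which lies antisense to Ptprt, completed this end of the range together with Shisal2a (0.80, adjusted p = 0.023). Further rises of this size were those of the endocytic receptor Ly75 (0.71, adjusted p = 0.013), the chemokine Cxcl16 (0.70, adjusted p = 0.04), the calcium-binding protein Necab1 (0.72, adjusted p = 0.0015) and, among genes whose means were over the threshold in both groups, Kdelr3, which returns proteins to the endoplasmic reticulum (0.69, adjusted p = 0.0041), the adhesion genes Igsf21 (0.64, adjusted p = 0.0033) and Ceacam1 (0.63, adjusted p = 0.0015), and Polr3gl, a subunit of RNA polymerase III (0.67, adjusted p = 0.037). Prss42, Shisal2a, Cxcl16 and Polr3gl no longer passed when the second DMSO array was left out.

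Among the largest falls outside the small RNAs, Trh, the precursor of thyrotropin-releasing hormone, read 11.65, 11.72 and 11.65 at 0.1 μM, against 12.19, 12.18 and 12.06 in DMSO (-0.47, SE 0.072, adjusted p = 0.008). The homeobox repressor Zhx1 read 8.40, 8.63 and 8.50 at 0.1 μM, against 9.18, 8.99 and 9.0 in DMSO (-0.55, SE 0.068, adjusted p = 0.0037). Both had DMSO arrays that lay close together and clear of the treated ones. The topoisomerase Top2b (-0.35, adjusted p = 0.029), Dido1 (-0.34, adjusted p = 0.025), Ubl3 (-0.35, adjusted p = 0.028) and the kinase Csnk1g3 (-0.33, adjusted p = 0.041) fell in the full fit and not without the second DMSO array, while Olfr1360, named for an olfactory receptor (-0.40, adjusted p = 0.017), and Gatc (-0.33, adjusted p = 0.029) passed in both. Smarcd1, a BAF remodeller subunit, and Spin1, a reader of methylated histone H3, had 2 probe sets each that disagreed. For Smarcd1 the dimmer fell (-0.44, adjusted p = 0.015) and the brighter missed the test (-0.15, adjusted p = 0.11), and for Spin1 the dimmer fell (-0.34, adjusted p = 0.043) but not without the second DMSO array, and the brighter did not pass (-0.13, adjusted p = 0.32).

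**Figure D2:**
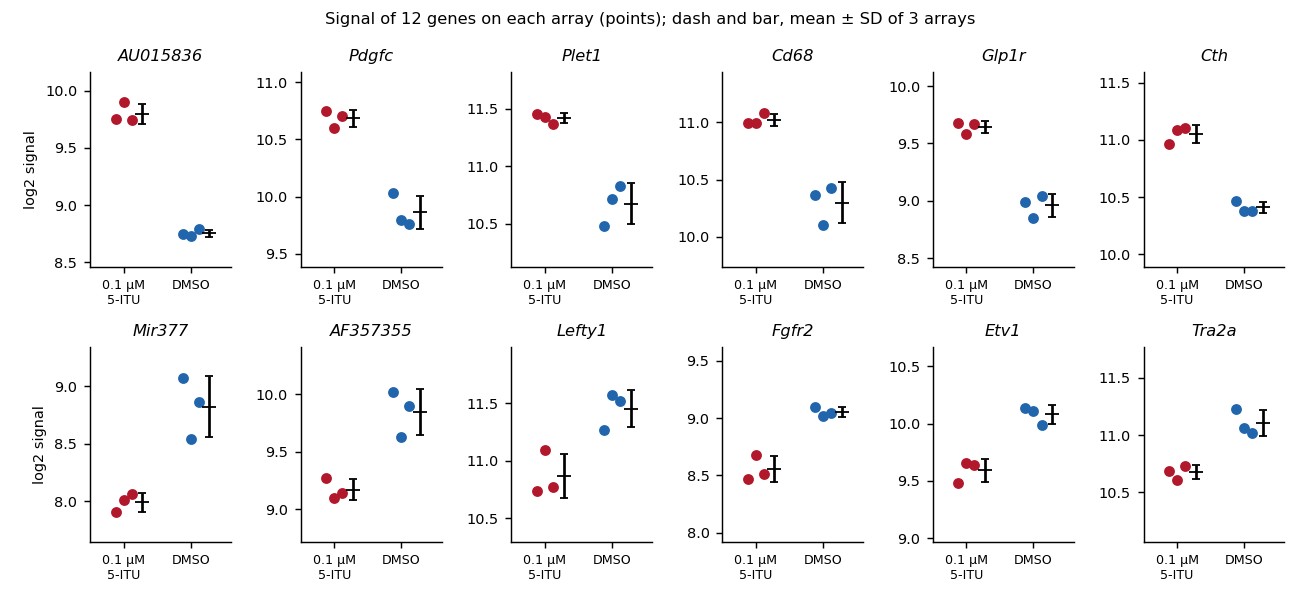
Log2 signal (vertical) of 12 genes on each of the 3 arrays at 0.1 μM 5-ITU (left in each panel) and the 3 in DMSO (right), 1 point per array, with the mean and the SD beside them and an axis of its own for each gene. The upper genes rose, as AU015836 at 9.74 to 9.90 at 0.1 μM against 8.73 to 8.79 in DMSO, and the lower genes fell. All 12 were called, and as with every call of the comparison the groups do not overlap.

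Among classes with at least 10 tested genes, those of the germline had the highest share of rises. Of 16 tested genes of the meiotic and piRNA pathways, 9 rose and none fell, 56.2% against 5.29% of all genes, with a median of 0.29. The piRNA pathway silences transposons in germ cells with small RNAs carried by PIWI proteins, and its risen members were the PIWI protein Piwil2 (0.40, adjusted p = 0.02), the helicases Ddx4 (0.29, adjusted p = 0.022) and Mov10l1 (0.36, adjusted p = 0.049), Mael (0.42, adjusted p = 0.017) and the Tudor domain proteins Tdrd12 (0.26, adjusted p = 0.046) and Rnf17 (0.22, adjusted p = 0.04). The meiotic genes that rose were the histone mark reader Zcwpw1 (0.47, adjusted p = 0.0058), Tex15 (0.30, adjusted p = 0.022) and Syce1 (0.18, adjusted p = 0.039), a part of the synaptonemal complex.

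Mael read 11.39, 11.46 and 11.41 at 0.1 μM, against 10.93, 10.92 and 11.15 in DMSO. Ddx4, also known as Vasa, read 9.66, 9.75 and 9.73 at 0.1 μM, against 9.33, 9.52 and 9.42 in DMSO. Zcwpw1 read 10.32, 10.36 and 10.34 at 0.1 μM, against 9.75, 9.84 and 10.02 in DMSO. All 3 were over the threshold on every array, while Piwil2, Tex15 and Mov10l1 were over it on all arrays at 0.1 μM and on none in DMSO. Among the 7 genes of the class that did not pass, the cohesin Smc1b had the largest difference (0.67, adjusted p = 0.13), with 8.76, 8.91 and 8.74 at 0.1 μM against 7.44, 8.43 and 8.54 in DMSO, and Dazl, an RNA-binding protein of germ cells, differed by -0.01 (adjusted p = 0.93). The count of rises in the class was 4 without the first DMSO array, 5 without the second array at 1 μM and 1 or 2 without an array at 0.1 μM. Only these 16 of the 46 genes written for the class were tested. Of these, 4 (Mov10l1, Piwil2, Prdm1 and Smc1b) were kept only because of the arrays at 0.1 μM, being over the threshold on fewer than 3 of the others, so a rise could itself have brought them in. Without such genes 7 of 12 rose (58.3%), against 4.8% of all genes.

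Promoter windows of 300 bases around the start site, from RefSeq on GRCm38.p6, were at hand for 6 of the 9 risen germline genes. The E-box CACGTG, a palindrome read by basic helix-loop-helix factors, was searched on both strands after these genes were known to have risen. It occurred in 3 of the 6 windows, those of Ddx4, Mael and Mov10l1, and in 1 of 7 windows of the genes of the class that did not pass (Stag3), against 7.15% of all 32851 windows and 12.8% of the 6571 tested genes with a window. Of the genes with a window, Mov10l1 among the risen and Prdm1 and Smc1b among the others were kept only because of the arrays at the lower dose. The motif counts of the class include these genes and were not taken without them. They therefore cannot show whether the motif goes with a rise apart from the filter. The windows of Ddx4, Mael and Mov10l1 are shown 5′ to 3′ on the strand of the gene with the motif in capitals.
Ddx4, chr13:112652261-112652560, minus strand: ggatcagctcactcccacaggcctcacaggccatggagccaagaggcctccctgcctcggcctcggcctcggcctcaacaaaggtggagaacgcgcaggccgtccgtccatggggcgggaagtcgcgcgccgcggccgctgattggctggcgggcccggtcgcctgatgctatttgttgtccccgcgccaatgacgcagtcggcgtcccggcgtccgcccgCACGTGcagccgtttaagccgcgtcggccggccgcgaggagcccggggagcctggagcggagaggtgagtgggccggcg
Mael, chr1:166238695-166238994, minus strand: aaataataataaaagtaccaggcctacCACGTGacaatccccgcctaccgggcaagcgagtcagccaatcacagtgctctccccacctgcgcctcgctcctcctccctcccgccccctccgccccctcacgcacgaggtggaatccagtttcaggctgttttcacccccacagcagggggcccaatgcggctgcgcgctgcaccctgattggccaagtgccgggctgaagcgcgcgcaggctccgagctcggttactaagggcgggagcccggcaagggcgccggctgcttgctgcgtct
Mov10l1, chr15:88982744-88983043, plus strand: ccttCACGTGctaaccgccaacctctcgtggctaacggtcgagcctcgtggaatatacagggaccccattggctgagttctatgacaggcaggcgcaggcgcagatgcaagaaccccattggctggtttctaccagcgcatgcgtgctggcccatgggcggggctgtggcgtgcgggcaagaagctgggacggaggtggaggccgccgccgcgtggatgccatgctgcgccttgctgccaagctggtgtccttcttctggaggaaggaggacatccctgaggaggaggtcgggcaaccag
The motif began 29 bases before the start site in Ddx4, 223 bases before it in Mael and 246 bases before it in Mov10l1. The same search found the E-box in 3 of 6 windows of the risen cholesterol genes described next (Abca1, Dhcr7 and Insig1), so its share was equal in both classes, and the sterol regulatory element TCACNCCAC in none of these 6 windows, against 1.24% of all windows. A match gives the letters only and says nothing of a factor at these promoters.

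Genes of cholesterol synthesis and its control were also above the background share. SREBF2, kept in the endoplasmic reticulum by INSIG proteins while sterols are plentiful, switches on the synthesis enzymes, and ABCA1 and ABCG1 carry cholesterol out of the cell. Of 22 tested genes of this class 8 rose and none fell (36.4%, against 5.29% of all genes), with a median of 0.16 and 20 of the 22 higher in mean. On the control side Srebf2 read 11.22, 11.22 and 11.24 at 0.1 μM, against 10.78, 10.93 and 10.98 in DMSO (0.33, adjusted p = 0.019), and Insig1 read 10.60, 10.82 and 10.59 at 0.1 μM, against 9.88, 10.23 and 10.28 in DMSO (0.54, adjusted p = 0.046). The risen enzymes were Fdft1 (0.27, adjusted p = 0.038), Msmo1 (0.47, adjusted p = 0.025), Tm7sf2 (0.37, adjusted p = 0.011) and Dhcr7 (0.20, adjusted p = 0.043). Both exporters rose, Abca1 by 0.44 (adjusted p = 0.0044) and Abcg1 by 0.48 (adjusted p = 0.044). Hmgcs1 missed the test (0.29, adjusted p = 0.051), and Sqle, the squalene epoxidase of the same route, differed by -0.01 (adjusted p = 0.93). The count was 3 and 4 without the first and the second DMSO array, 4 without the second array at 1 μM and 1 or 2 without an array at 0.1 μM.

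In fatty acid and phospholipid synthesis 5 of 31 genes rose and none fell (16.1%, against 5.29% of all genes). They were the phosphatidate phosphatase Lpin1 (0.53, adjusted p = 0.0028), the desaturase Scd1 (0.56, adjusted p = 0.032), the elongase Elovl2 (0.29, adjusted p = 0.034), and the acyltransferases Agpat4 (0.31, adjusted p = 0.014) and Dgat2 (0.23, adjusted p = 0.039). Dgat2 was kept only because of the arrays at 0.1 μM, and without it 4 of 30 rose (13.3%, against 4.8% of all genes so chosen). Lpin1 read 10.22, 10.31 and 10.31 at 0.1 μM, against 9.67, 9.80 and 9.79 in DMSO, with the 2 groups well apart. The count was 3 without the second or the third DMSO array, 2 without the second array at 1 μM and 1 or 2 without an array at 0.1 μM.

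Glycolysis and hypoxia genes gave 9 rises and no fall among 38 (23.7%, against 5.29% of all genes), with a median of 0.11. Without the second DMSO array 7 of these 9 passed, and the count was 3 to 6 without an array at 0.1 μM. Epas1, the hypoxia-inducible factor HIF2α, read 9.20, 9.19 and 9.17 at 0.1 μM, against 8.85, 8.82 and 8.73 in DMSO (0.39, SE 0.045, adjusted p = 0.0028), the spread in each group being small beside the difference. The lysyl hydroxylase Plod1 rose by 0.45 (adjusted p = 0.0037), and Ndrg1, a stress gene induced by low oxygen, by 0.47 (adjusted p = 0.011). Among glycolytic enzymes the isoforms Eno3 (0.40, adjusted p = 0.01), Aldoc (0.56, adjusted p = 0.019) and Ldhb (0.47, adjusted p = 0.013) rose. The carbonic anhydrases Car12 (0.55, adjusted p = 0.0058) and Car4 (0.57, adjusted p = 0.046) and the angiogenic ligand Vegfa (0.60, adjusted p = 0.043) made up the rest. Car12 was kept only because of the arrays at 0.1 μM, and without it 8 of 37 rose (21.6%). In oxidative phosphorylation 2 of 72 genes rose (2.8%), Ndufa4l2 (0.49, adjusted p = 0.015) and Cox7a1 (0.60, adjusted p = 0.015).

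**Figure D3:**
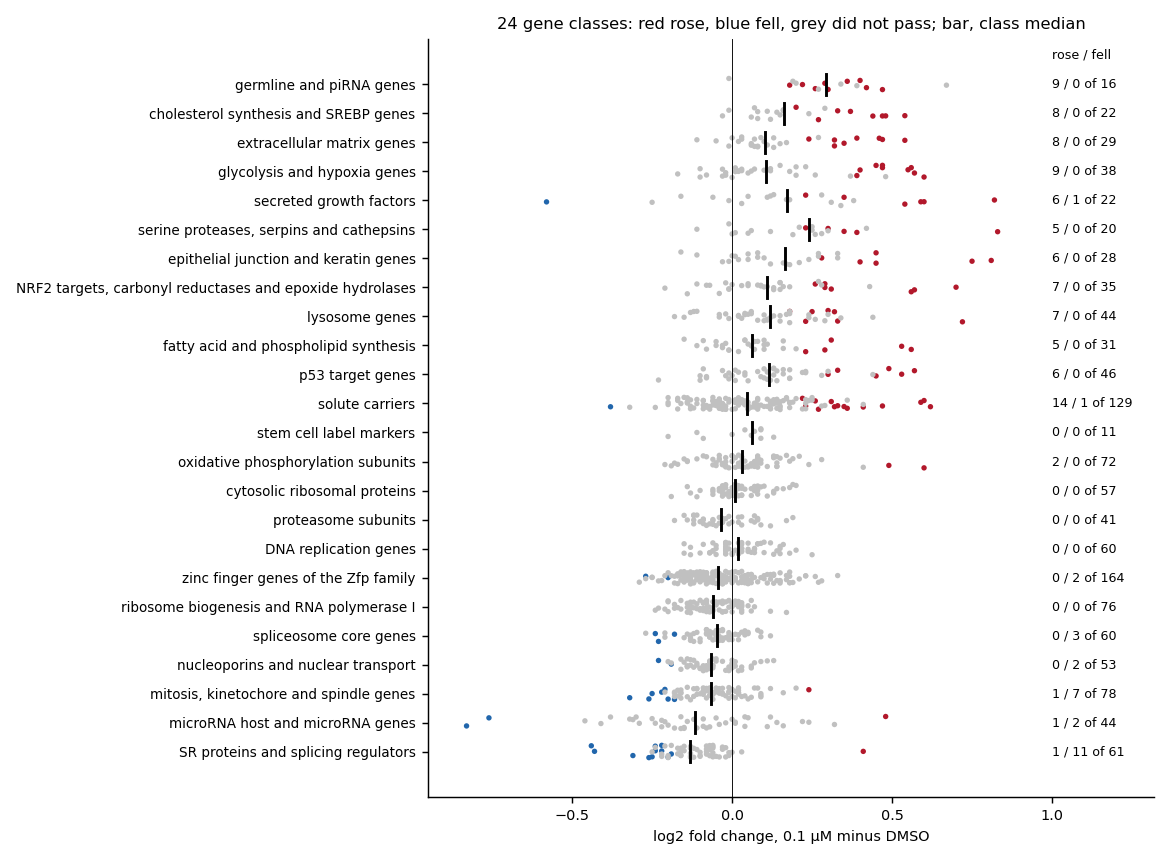
Log2 difference, 0.1 μM 5-ITU minus DMSO (horizontal), of each tested gene in 24 gene classes (rows), red where it rose, blue where it fell and grey where it did not pass, with a bar at the class median and the counts at the right. Of the classes drawn, germline and piRNA genes have the highest median at 0.29 and splicing regulators the lowest at -0.13, where nearly the whole class lies left of 0.

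Secreted ligands and their surroundings were also above the background share. Of 22 growth factor genes 6 rose (27.3%, against 5.29% of all genes) and 1 fell. Beside Pdgfc the risen ligands were Pdgfa (0.23, adjusted p = 0.037), the EGF family ligands Hbegf (0.54, adjusted p = 0.0036) and Nrg1 (0.58, adjusted p = 0.0067), Tgfb1 (0.35, adjusted p = 0.0058) and Vegfa. Hbegf read 9.09, 9.06 and 9.19 at 0.1 μM, against 8.47, 8.63 and 8.62 in DMSO. The ligand that fell was the Nodal antagonist Lefty1, at 10.74, 11.09 and 10.77 at 0.1 μM, against 11.27, 11.57 and 11.52 in DMSO (-0.58, adjusted p = 0.018), and this call was lost without the second DMSO array. Without an array at 0.1 μM, or without the second at 1 μM, 4 of the growth factor genes rose.

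Receptors moved in both directions. Of 22 receptor tyrosine kinase genes 2 rose and 2 fell (9.1% each, against 5.29% and 1.41% of all genes). The angiopoietin receptor Tek read 9.51, 9.66 and 9.57 at 0.1 μM, against 8.97, 8.99 and 8.96 in DMSO (0.61, SE 0.046, adjusted p = 0.00059), and Egfr, the receptor of Hbegf, read 8.93, 9.12 and 8.95 at 0.1 μM, against 8.51, 8.56 and 8.44 in DMSO (0.49, adjusted p = 0.0041). The fibroblast growth factor receptor Fgfr2 read 8.47, 8.68 and 8.51 at 0.1 μM, against 9.10, 9.02 and 9.04 in DMSO (-0.50, adjusted p = 0.0041). Ror1, a Wnt5a receptor, read 7.74, 7.99 and 7.88 at 0.1 μM, all under the threshold, against 8.78, 8.64 and 8.18 in DMSO (-0.67, adjusted p = 0.048), and did not pass without the second DMSO array. Among G protein-coupled receptors 4 of 19 rose (21.1%), the GLP-1 receptor Glp1r (0.68, adjusted p = 0.0012), the thrombin receptor F2r (0.39, adjusted p = 0.0022), Gprc5a (0.49, adjusted p = 0.013) and Gprc5b (0.29, adjusted p = 0.035).

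Genes that ERK signalling switches on moved both ways as well. Of 26 genes of FGF and ERK feedback 4 rose and 1 fell (15.4% and 3.8%, against 5.29% and 1.41% of all genes). Dusp6, a phosphatase that turns ERK off, read 11.23, 11.26 and 11.25 at 0.1 μM, against 10.97, 11.01 and 10.96 in DMSO (0.27, adjusted p = 0.0072), and the early response gene Ier3 read 10.90, 10.97 and 10.86 at 0.1 μM, against 10.10, 10.34 and 10.34 in DMSO (0.65, adjusted p = 0.014). Dusp1 (0.33, adjusted p = 0.029) and the AP-1 factor Fosl2 (0.30, adjusted p = 0.023) also rose. The ETS factor Etv1 read 9.48, 9.66 and 9.64 at 0.1 μM, against 10.14, 10.11 and 9.99 in DMSO, a log2 difference of -0.49 (adjusted p = 0.0049). The count of rises was 1 or 2 without an array at 0.1 μM.

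Extracellular matrix genes gave 8 rises among 29 (27.6%, against 5.29% of all genes) and no fall. The basement membrane genes Nid1 (0.54, adjusted p = 0.025) and Lama1 (0.39, adjusted p = 0.019) rose, as did the matrix metalloprotease Mmp2 (0.46, adjusted p = 0.03), the metalloprotease inhibitor Timp3 (0.47, adjusted p = 0.0067), Adamts9, Loxl1, Thbs1 and Fbln1. Nid1 was read by 2 probe sets that both rose, the brighter at 10.65, 10.65 and 10.56 at 0.1 μM, against 9.82, 10.38 and 10.03 in DMSO. The count was 5 without any of the DMSO arrays or the second array at 1 μM, and 1 without any of the arrays at 0.1 μM. Loxl1 and Timp3 were kept only because of the arrays at 0.1 μM, and without them 6 of 27 rose (22.2%). Of 28 genes of epithelial junctions and keratins 6 rose (21.4%), among them 3 genes of the epithelial membrane protein family, Emp1 (0.45, adjusted p = 0.037), Emp2 (0.40, adjusted p = 0.014) and Emp3, with Perp, a desmosome protein, at 0.45 (adjusted p = 0.017). Emp2 was kept only because of the arrays at 0.1 μM, and without such genes 5 of 25 rose (20%). Among 29 integrins, cadherins and other adhesion genes 5 rose (17.2%), or 3 of 27 without those kept only because of the arrays at 0.1 μM. Without an array at 0.1 μM 2 to 4 of the epithelial and 1 of the adhesion genes rose, and without the first DMSO array 3 of the adhesion genes.

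Of 20 serine proteases, serpins and cathepsins 5 rose (25%, against 5.29% of all genes), with a median of 0.24 and 18 of 20 higher in mean. Beside Prss42 they were its testis neighbour on chromosome 9 Prss50 (0.39, adjusted p = 0.0067), the kallikrein Klk8 (0.35, adjusted p = 0.0067) and the lysosomal cathepsins Ctsz (0.30, adjusted p = 0.016) and Ctsb (0.23, adjusted p = 0.038). Prss42 and Prss50 were both over the threshold on all arrays at 0.1 μM and on none in DMSO. Without the 5 genes kept only because of the arrays at 0.1 μM, Prss50 among them, 4 of 15 rose (26.7%, against 4.8% of all genes so chosen), with a median of 0.19. Both cathepsins also count among the 7 of 44 lysosome genes that rose (15.9%), with Cd68, Laptm5, the mannosidase Man2b1 (0.32, adjusted p = 0.011), the fucosidase Fuca1 (0.25, adjusted p = 0.015) and the acid lipase Lipa (0.18, adjusted p = 0.044). Without the second DMSO array 4 of these 7 lysosome genes passed, the count was 5 without the first, and it was 1 to 3 without an array at 0.1 μM. Of the 20 protease genes, 3 rose without the first or the second DMSO array or the second array at 1 μM, and 2 or 3 without an array at 0.1 μM. None of 32 autophagy genes passed.

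Among 35 NRF2 targets, carbonyl reductases and epoxide hydrolases 7 rose (20%, against 5.29% of all genes). The epoxide hydrolase Ephx1 read 9.97, 9.84 and 10.04 at 0.1 μM, against 9.41, 9.24 and 9.47 in DMSO (0.57, adjusted p = 0.0079). Glutathione-linked genes made up most of the others, with Gstm2 (0.31, adjusted p = 0.011), Gstm3 (0.56, adjusted p = 0.034), Mgst3 (0.29, adjusted p = 0.019) and Gpx3 (0.26, adjusted p = 0.011), beside Blvrb and Cbr3 (0.70, adjusted p = 0.024). Cbr3 was under the threshold on every DMSO array and did not pass without the second of them. Of the 7, Cbr3, Gpx3, Gstm3 and Mgst3 were kept only because of the arrays at 0.1 μM, and without such genes 3 of 30 rose (10%, against 4.8% of all genes so chosen). Of 46 p53 targets 6 rose (13%), Ephx1, Perp, Tap1 (0.49, adjusted p = 0.0082), Ptprv (0.53, adjusted p = 0.015), Polk (0.30, adjusted p = 0.024) and Crip2 (0.33, adjusted p = 0.049), while the best known target, the CDK inhibitor Cdkn1a, read 11.65, 11.59 and 11.67 at 0.1 μM, against 11.56, 11.22 and 11.43 in DMSO, and missed the test (0.23, adjusted p = 0.1). Without an array at 0.1 μM 2 genes rose in either class, and without the first DMSO array 10 p53 targets did.

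Cth and Cbs, the enzymes of transsulfuration, which makes cysteine from homocysteine, were taken up as a pair after their values were seen. Cth read 10.96, 11.09 and 11.10 at 0.1 μM, against 10.47, 10.38 and 10.38 in DMSO (0.64, SE 0.056, adjusted p = 0.00087), and Cbs read 10.03, 10.02 and 9.94 at 0.1 μM, against 9.50, 9.56 and 9.50 in DMSO (0.47, adjusted p = 0.0037). In both genes the groups were apart by more than the spread within them. In the list of 27 integrated stress response genes, to which they belong, the factor Atf3 also rose (0.40, adjusted p = 0.018), the serine synthesis enzyme Psat1 fell (-0.27, adjusted p = 0.043) and 19 of the 27 were lower in mean.

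Solute carriers were the class with the largest number of rises, 14 of 129 (10.9%, against 5.29% of all genes), with 1 fall. The citrate carrier Slc13a5 (0.62, adjusted p = 0.0048), the glutamate carrier Slc1a1 (0.59, adjusted p = 0.02) and the imprinted Slc22a18 (0.60, adjusted p = 0.014) had the largest differences, and 4 of the 14 (Slc25a20, Slc25a42, Slc25a12 and Slc25a33) belong to the mitochondrial carrier family. Slc13a5 was 1 of 8 solute carriers kept only because of the arrays at 0.1 μM, and without these 12 of 121 rose (9.92%). The zinc carrier Slc39a7 fell (-0.38, adjusted p = 0.029). Of 37 tubulins, tubulin ligases and ciliary genes 5 rose (13.5%), the polyglutamylase Ttll6 at 9.51, 9.34 and 9.51 at 0.1 μM, against 8.67, 8.60 and 8.91 in DMSO (0.73, adjusted p = 0.0082), Tppp3 (0.61, adjusted p = 0.0021), Tubb2a (0.36, adjusted p = 0.0081), Bbs2 (0.25, adjusted p = 0.024) and Fam183b. Fam183b was likewise kept only because of the arrays at 0.1 μM, and without it 4 of 36 rose (11.1%). Of 19 semaphorins, ephrins, netrins and plexins 4 rose (21.1%), Sema5b, Sema3e, Efna3 and Slit3. Without an array at 0.1 μM, 4 to 6 solute carriers, 0 or 1 of these guidance genes and 4 of the tubulin and ciliary genes rose, and 2 of the guidance genes without the first or the third DMSO array.

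**Figure D4:**
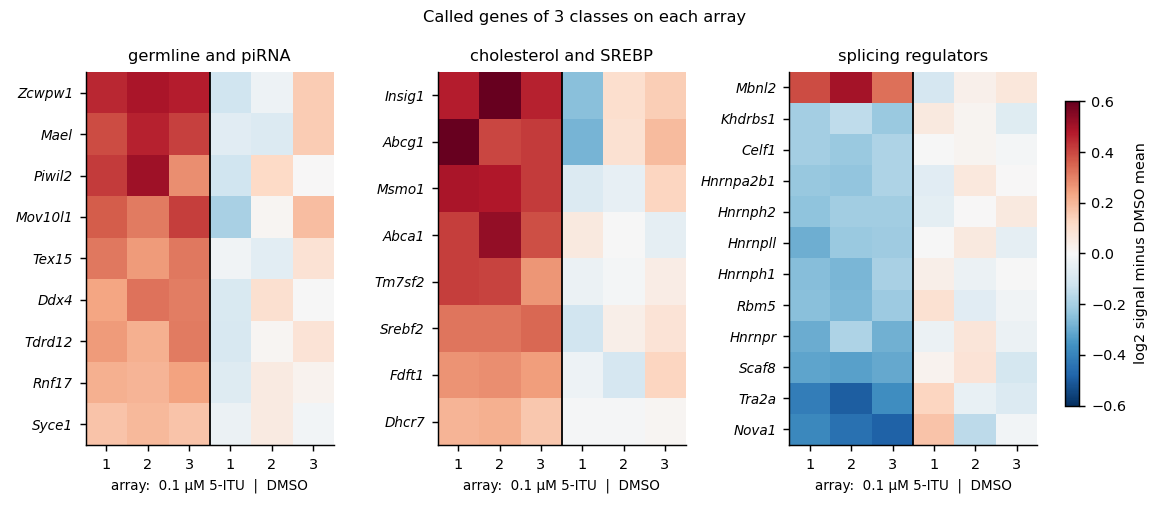
Log2 signal of each called gene (rows) minus its DMSO mean, as colour capped at 0.6 either way, on the 3 arrays at 0.1 μM 5-ITU (left of the line) and the 3 in DMSO (right), for germline and piRNA genes, cholesterol genes and splicing regulators. Only called genes are drawn, and every call of the comparison had its groups apart. The germline and cholesterol genes are thus above their DMSO mean on all 3 arrays at 0.1 μM, and the splicing regulators below it apart from Mbnl2. The first DMSO array is mostly the lowest for the first 2 classes.

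Among classes with at least 10 tested genes, splicing regulators had the highest share of falls. SR proteins and hnRNPs bind pre-mRNA and set which exons are kept, and of 61 tested genes of this class 11 fell (18%, against 1.41% of all genes) and 1 rose. The median was -0.13, with 58 of the 61 lower in mean at 0.1 μM. The hnRNP family gave 5 of the falls, Hnrnpr (-0.26, adjusted p = 0.017), Hnrnph1 (-0.24, adjusted p = 0.024), Hnrnph2, Hnrnpll (-0.24, adjusted p = 0.027) and Hnrnpa2b1 (-0.22, adjusted p = 0.033). Hnrnph1 and Hnrnph2 are close copies of each other, and their probe sets may share signal.

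The SR-like splicing activator Tra2a read 10.69, 10.61 and 10.73 at 0.1 μM, against 11.23, 11.06 and 11.02 in DMSO (-0.43, SE 0.080, adjusted p = 0.016). The neuronal regulator Nova1 fell by as much (-0.44, adjusted p = 0.038) and at 8.38, 8.32 and 8.28 was under the threshold on all arrays at 0.1 μM, against 8.94, 8.61 and 8.75 in DMSO. Scaf8, which binds the tail of RNA polymerase II, read 10.27, 10.26 and 10.28 at 0.1 μM, against 10.61, 10.67 and 10.48 in DMSO (-0.31, adjusted p = 0.012). Celf1 (-0.20, adjusted p = 0.022), Rbm5 (-0.25, adjusted p = 0.023) and Khdrbs1, also known as SAM68 (-0.19, adjusted p = 0.049), were the other falls. The single rise was Mbnl2, a regulator that in muscle acts against Celf1, at 10.83, 10.94 and 10.77 at 0.1 μM, against 10.34, 10.47 and 10.51 in DMSO (0.41, adjusted p = 0.017). The count of falls was 7 without the first DMSO array and 0 or 1 without an array at 0.1 μM, and 8 of the 11 passed without the second DMSO array.

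The machinery around these regulators shifted less. Of 60 spliceosome core genes 3 fell (5%, against 1.41% of all genes), and 47 of the 60 were lower in mean. The falls were Cwc22 (-0.23), Dhx15 (-0.24, adjusted p = 0.042) and Crnkl1 (-0.18, adjusted p = 0.043). The count was 1 without the first or the second DMSO array or the second array at 1 μM. Cwc22 is read by 7 probe sets with almost the same values, 9.58, 9.53 and 9.58 at 0.1 μM, against 9.76, 9.86 and 9.78 in DMSO (adjusted p = 0.016), and these make up 7 of the 127 fallen members. Among 53 nucleoporin and nuclear transport genes 2 fell (3.8%, against 1.41% of all genes), the mRNA exporter Nxf1 (-0.19, adjusted p = 0.049) and the importin Ipo8 (-0.23, adjusted p = 0.047). Neither of them fell without the first or the second DMSO array. Of 47 genes of cyclins, CDKs, their inhibitors and the RB and E2F families 3 rose and 2 fell. These are 6.4% and 4.3%, against 5.29% and 1.41% of all genes. The transcription-linked Ccnl1 (-0.32, adjusted p = 0.023) and Cdk12 (-0.25, adjusted p = 0.046) fell, Cdk18 and Rb1 rose, and Ccnd2, a D-type cyclin of G1, read 9.04, 9.17 and 9.15 at 0.1 μM, against 8.60, 8.47 and 8.25 in DMSO (0.68, adjusted p = 0.0041).

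In mitosis, kinetochore and spindle genes, where Haspin acts, 7 of 78 fell (9%, against 1.41% of all genes) and 1 rose (1.3%, against 5.29%). The class median was -0.07. The kinase Plk1 read 12.10, 12.09 and 12.16 at 0.1 μM, against 12.34, 12.38 and 12.40 in DMSO (-0.26, adjusted p = 0.013), and the spindle pole gene Aspm read 9.60, 9.64 and 9.55 at 0.1 μM, against 9.81, 9.87 and 9.85 in DMSO (-0.25, adjusted p = 0.014). The proliferation marker Mki67 (-0.32, adjusted p = 0.033), the motors Kif11 (-0.18, adjusted p = 0.046) and Kif20a (-0.21, adjusted p = 0.027), and the kinetochore proteins Cenpe (-0.22, adjusted p = 0.03) and Cenpc1 (-0.20, adjusted p = 0.043) also fell, and Cenph rose (0.24, adjusted p = 0.027). Aurkb, the kinase that the mark laid by Haspin brings to the centromere, differed by -0.08 (adjusted p = 0.29). The counts were 3 falls and no rise without the second or the third DMSO array, and 0 or 1 fall without an array at 0.1 μM.

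The microRNA and small RNA genes of chromosome 12 were noted after their values were seen. Of the 103 genes annotated between Dlk1 and Dio3, 9 were members. All 9 were lower in mean at 0.1 μM, with a median of -0.46. Of the 9, 3 fell, against 1.51% of all members. For 7 every array at 0.1 μM was below every DMSO array, against 15.9% of all members. Mir377 read 7.90, 8.01 and 8.06 at 0.1 μM, against 9.07, 8.54 and 8.86 in DMSO (-0.83, adjusted p = 0.0062), Mir329 read 8.80, 8.87 and 8.86 at 0.1 μM, against 9.90, 9.25 and 9.65 in DMSO (-0.76, adjusted p = 0.018), and AF357355 read 9.27, 9.10 and 9.14 at 0.1 μM, against 10.02, 9.63 and 9.90 in DMSO (-0.68, adjusted p = 0.0091). Rian, the long noncoding host transcript of the small nucleolar RNAs there, read 10.75, 10.79 and 10.79 at 0.1 μM, against 11.41, 11.06 and 11.25 in DMSO and missed the test (-0.46, adjusted p = 0.058). The second DMSO array was the lowest of the 3 DMSO arrays for each of these 4. Genes of this cluster are processed from few long precursor transcripts, so the 9 are not independent readings. Among the 44 microRNA genes as a whole 2 fell, Mir329 and Mir377 (4.5%, against 1.41% of all genes), and Mir1199 rose (0.48, adjusted p = 0.011).

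The stem cell markers and the naive pluripotency network gave few calls. Of 12 markers of embryonic stem cells 11 were tested, and none passed, with Sox2 at 12.52, 12.55 and 12.42 at 0.1 μM, against 12.38, 12.55 and 12.43 in DMSO (0.04, adjusted p = 0.7), Pou5f1 at -0.09 (adjusted p = 0.52) and Nanog at 0.07 (adjusted p = 0.48). Of the wider naive network of 30 genes 2 rose (6.7%, against 5.29% of all genes), Prdm14 (0.31, adjusted p = 0.024) and Tcl1. Tcl1 read 11.22, 11.17 and 11.27 at 0.1 μM, against 10.50, 10.73 and 10.78 in DMSO (0.55, adjusted p = 0.0041). In mean, 22 of the 30 were higher and 8 lower, with a median of 0.08. The linear signal summed over the 30 was 88811 to 90344 at 0.1 μM, against 85062 to 86326 in DMSO. The factor Klf4 read 10.79, 10.77 and 10.82 at 0.1 μM, against 10.70, 10.63 and 10.60 in DMSO and missed the test (0.15, adjusted p = 0.16). Of 21 formative and primed epiblast genes the methyltransferase Dnmt3b (-0.28, adjusted p = 0.021) and Zic5 (-0.31, adjusted p = 0.024) fell and none rose. The share of falls was 9.5%, against 1.41% of all genes, and 1 of these 2 falls passed without the second DMSO array. The paired retinoic acid binding proteins moved opposite ways, Crabp1 at 10.94, 10.91 and 10.89 at 0.1 μM, against 10.39, 10.35 and 10.42 in DMSO (0.53, adjusted p = 0.0034), and Crabp2 at 8.39, 8.42 and 8.21 at 0.1 μM, against 8.70, 8.56 and 8.79 in DMSO (-0.34, adjusted p = 0.029).

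Large housekeeping classes gave no or few calls, where 5.29% of all genes rose and 1.41% fell. None of 57 cytosolic ribosomal proteins, 41 proteasome subunits, 60 DNA replication genes or 76 genes of ribosome biogenesis passed, and 1 of 62 mitochondrial ribosomal proteins did. Ribosome biogenesis genes nonetheless had a median of -0.06 with 55 of 76 lower in mean. Of 164 zinc finger genes of the Zfp family none rose and 2 fell, while 4 rose without the first DMSO array, and the falls were 4 without the third array at 1 μM, 8 after quantile normalization and 5 with array weights by group. Of 14 two-cell-like genes, which mark a rare state in these cultures, Tdpoz3 passed (0.51, adjusted p = 0.014) at values under the threshold on all 6 arrays, and its neighbour Tdpoz2 read 7.05, 7.85 and 7.39 at 0.1 μM, against 7.66, 7.67 and 7.27 in DMSO (-0.10, adjusted p = 0.78).

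Some markers of other cell types rose or fell at 0.1 μM. In a bulk culture a shift in the number of such cells and a shift of RNA per cell cannot be told apart. Of 30 trophoblast markers 13 were tested, of which Plet1, Phlda2 (0.35, adjusted p = 0.014), Dlx3 (0.53, adjusted p = 0.034) and Ets2 (0.35, adjusted p = 0.036) rose and Fgfr2 and Tfap2c (-0.25, adjusted p = 0.016) fell, and their summed linear signal was 15695 to 16173 at 0.1 μM, against 13572 to 13786 in DMSO. Of 26 fibroblast and feeder markers 8 were tested and Loxl1, Thy1, Mmp2 and Cald1 rose, with sums of 13305 to 14241 at 0.1 μM, against 12110 to 12982 in DMSO, and 1 of the 8 rose without the first DMSO array. Loxl1 and Thy1, and Dlx3 of the trophoblast markers, were kept only because of the arrays at 0.1 μM. Without such genes 2 of 6 fibroblast and 3 of 12 trophoblast markers rose, against 4.8% of all genes so chosen. The sums given include these genes and were not taken without them, so the filter itself could have raised the sums at 0.1 μM. Of 33 macrophage and blood cell markers only Cd3e, Cd68 and Laptm5 were tested. Cd68 read 10.99, 10.99 and 11.08 at 0.1 μM, against 10.37, 10.10 and 10.43 in DMSO (0.72, adjusted p = 0.0022), and the other 30, Ptprc, Csf1r and Adgre1 among them, were not among the members. The part of such cells in the rises of matrix, lysosome and epithelial genes was not tested. Of 39 neural and ectoderm markers 9 were tested, of which Stmn3 (0.41, adjusted p = 0.02) and Elavl3 (0.50, adjusted p = 0.03) rose and Nova1 fell, with sums of 7623 to 7811 at 0.1 μM, against 6899 to 7379 in DMSO. Stmn3, Map2 and Slc1a3 were kept only because of the arrays at 0.1 μM, and the neural sums include them and were not taken without them. Of the 6 other neural markers 1 rose and 1 fell. Of 31 endoderm markers 7 were tested and Lama1 rose, with sums of 7585 to 7801 at 0.1 μM, against 6782 to 7534 in DMSO. Of 33 mesoderm markers 2 were tested and neither passed, with sums of 884 to 945 at 0.1 μM, against 785 to 925 in DMSO, which overlap. The sum of the 11 stem cell markers was 46897 to 47147 at 0.1 μM, against 45528 to 45829 in DMSO.

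The arrays at 0.1 μM were closer to each other than those of any other group. The median SD of a member over the 3 arrays was 0.041 at 0.1 μM (interquartile range 0.024 to 0.064), against 0.084 in DMSO (0.050 to 0.129), and it was 0.074 at 1 μM. The SD was lower at 0.1 μM than in DMSO for 6565 of the 8414 members (78%), and lowest of the 3 groups at 0.1 μM for 62.4%, while DMSO had the highest SD for 51.2%. An SD over 0.3 was reached by 2 members at 0.1 μM, against 145 in DMSO. With 3 arrays a single SD is poorly known, and members share the same arrays, so these shares describe 3 sets of arrays and carry no test.

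**Figure D5:**
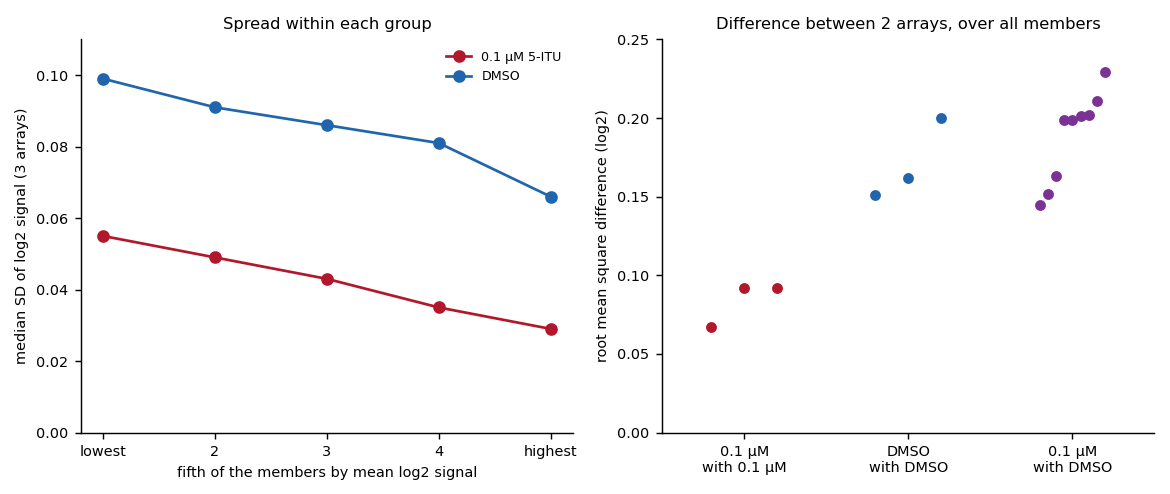
The left panel gives the median SD of log2 signal over the 3 arrays of a group (vertical) in 5 equal groups of members by mean signal (horizontal), at 0.1 μM 5-ITU and in DMSO, and the right panel the root mean square log2 difference over all members between 2 arrays (vertical), 1 point per pair of arrays, within 0.1 μM, within DMSO and between them. The medians are lower at 0.1 μM at each level of signal, and the 3 pairs within 0.1 μM lie below 0.1 while all other pairs lie above it.

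The narrower spread was found at every level of signal. In the dimmest of the 5 groups by signal the median SD was 0.055 at 0.1 μM, against 0.099 in DMSO, and in the brightest it was 0.029 at 0.1 μM, against 0.066 in DMSO. It was found among risen members (0.048 at 0.1 μM, against 0.085 in DMSO) and among fallen ones (0.040 at 0.1 μM, against 0.068 in DMSO). In ribosomal proteins, none of which passed, the median SD was 0.029 at 0.1 μM, against 0.082 in DMSO. Some members had the same deposited value on 2 or more arrays of a group, 6.9% at 0.1 μM, against 3.4% in DMSO.

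Differences between single arrays show where the spread lay. The root mean square difference over members was 0.067 to 0.092 between arrays at 0.1 μM, against 0.151 to 0.200 between arrays in DMSO. The third DMSO array was as near to the arrays at 0.1 μM (0.145 to 0.163) as to the other 2 DMSO arrays, which lay at 0.199 to 0.229 from the arrays at 0.1 μM. The quality weights that limma estimates per array were 1.14 to 2.86 at 0.1 μM, against 0.354, 0.370 and 1.44 in DMSO. In DMSO the first and second arrays had the low weights and the third a weight in the range of the arrays at 0.1 μM.

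Of the members over the threshold on all 9 arrays, the 6 with the widest spread in DMSO were small nucleolar RNAs. Snord13 read 10.59, 10.73 and 10.60 at 0.1 μM, against 10.10, 13.04 and 10.63 in DMSO, and Snora16a, Snora44, Snora73a and Snora73b were likewise highest on the second DMSO array. Over the 57 tested small nucleolar, Cajal body and spliceosomal RNAs the median SD was 0.073 at 0.1 μM, against 0.234 in DMSO. Of the same members the widest at 0.1 μM was Oaz1, at 9.04, 9.59 and 9.19, against 9.05, 8.87 and 9.10 in DMSO. The 2 members with an SD over 0.3 at 0.1 μM, Tdpoz2 and Fos, were under the threshold on some arrays, and Fos read 8.32, 8.26 and 8.91 at 0.1 μM, against 8.92, 8.21 and 8.69 in DMSO.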

How the data were processed

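The authors hybridised RNA of the cells to Mouse Gene 2.0 ST arrays and deposited 1 table of log2 signals per probe set, made by RMA and Affymetrix Expression Console per the submitters' processing notes, while the methods name Expression Console for quality and background and GeneSpring for the analysis. Scanner files were not used here. Only the number of arrays, 3 per group, and not a read depth limits the precision. Probe sets over a linear signal of 353, the threshold of the methods, on at least 3 of the 9 arrays were kept, 9911 of 10476, of which 8414 had 1 symbol, 627 several and 870 none in the platform annotation.

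The log2 values were fitted without further normalization by limma 3.58.1 in R 4.3.3 (lmFit, 1 mean per group over all 9 arrays, eBayes), with Benjamini-Hochberg adjustment over the 9911. The fit was tested on simulated data in which a probe set had the same spread in every group. The groups here differ in spread, so that test does not cover this feature of the arrays. Members were called at an adjusted p under 0.05 or past 1.5-fold, the fold of the methods, where the p of the comparison before adjustment was under 0.05. The methods take a one-way test over all groups, which was an alternative. The 84 gene classes, 55 lists and 29 symbol patterns, count a gene once, by its brightest tested probe set, and only as a description. Genes named were the 15 largest rises and falls outside numbered loci and small RNAs, the same with both means over the threshold, up to 4 genes per class by smallest p, genes the study discusses, those of widest spread and called cell type markers. Other genes named, the further called members of a class among them, were chosen after their values were seen. Members and lists were chosen with earlier results of these data known. The alternatives tried were other filters, normalizations, weights, variance models, blocks and thresholds, and each array left out.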

Additional observations from a re-analysis of the deposited data

How the results depend on the processing

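The 4 counts and 2 spreads were computed again with 1 choice changed at a time. Against 436 higher and 127 lower members, per-array quality weights gave 782 and 446, an adjusted p under 0.1 gave 792 and 382, and the one-way F test of the methods over all 3 groups, which also answers to the 1 μM arrays, gave 1214 and 912. Leaving out 1 array gave 119 to 501 higher and 7 to 198 lower members. Against 52 higher and 5 lower members past 1.5-fold, requiring the threshold on all 9 arrays gave 26 and 2, a fold change over 2 gave 1 and 0, per-array weights gave 33 higher, no filter gave 9 lower, leaving out small RNAs, a choice made after seeing the data, gave 1 lower, and leaving out 1 array gave 40 to 67 and 4 to 7. The median SD was 0.0409 at 0.1 μM and 0.0838 in DMSO, 0.0238 at 0.1 μM and 0.0527 in DMSO with the median absolute deviation in its place, and 0.0261 to 0.0362 at 0.1 μM and 0.0597 to 0.0798 in DMSO with 1 array of the group left out. Why these counts moved was not tested, beyond the smaller number of arrays or probe sets that some settings use. Quantile normalization and centring gave 391 and 417 higher members, and 167 and 154 lower ones. Other settings stayed within 1.5 times.

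Whether the replicate numbers pair the arrays was not settled. Same-numbered arrays at 0.1 μM and in DMSO deviated together with r = 0.09, 0.28 and -0.01 over all probe sets tested. Arrays of different numbers gave r between -0.28 and 0.26. Deviations from the mean of only 3 arrays are tied to one another, so these values cannot decide it. With the replicate number as a block 538 members were higher and 174 lower, of which 416 and 116 were also called without it.

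Of 199 genes named, 174 were called, and in 3778 refits of these over all settings none turned its direction, while 708 lost the call, 355 of them without an array at 0.1 μM. Under every refit 47 kept it. Of 539 refits of the 25 not called, 30 made a call. Class counts without genes kept only because of the arrays at 0.1 μM were added after seeing the data. Median SDs rest on 3 arrays, and members near the threshold, where 68 risen ones lay in DMSO, are read with background.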
